A study of Mus musculus with 2 samples.

Results

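Accessibility at the genes of 4 families of chromatin complexes was described in mouse megakaryocyte-erythroid progenitors (MEP), the bone marrow precursors of platelets and red blood cells. The set held 54 of the 21853 protein-coding genes of GENCODE M21. They were chosen by name as subunits of Polycomb (19 genes), SWI/SNF (15), NuRD (11) and COMPASS (9). No measured value was a criterion, but earlier results of these data were known when they were chosen. The assay was ATAC-seq, in which the Tn5 transposase cuts open chromatin and tags it for sequencing. Both libraries were made from 50000 MEP. The animals were C57BL/6J males, 5 to 6 weeks old, with no treatment or altered allele in the labels. They are named replicates 1 and 2, with separate biosample entries and 1 shared donor entry, so it is not stated whether they came from separate animals. For replicate 1 the labels give 2 sequencers, and for replicate 2 they give none. All coordinates are on mm10.

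Polycomb complexes keep genes silent: PRC2 methylates histone H3 and PRC1 ubiquitinates histone H2A and compacts chromatin. SWI/SNF (BAF and PBAF) uses ATP to slide or evict nucleosomes, and NuRD joins a nucleosome remodeller to histone deacetylases. COMPASS complexes methylate histone H3 at active promoters and enhancers. In blood formation PRC1 with Bmi1 is known for stem cell self-renewal, Kmt2a for leukaemic translocations, and NuRD as a partner of the erythroid factors Gata1 and Fog1.

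A gene counted as accessible if each library's IDR-thresholded list had a region within 1 kb of any of its protein-coding transcription start sites (TSS). Where there were several, the most significant region stood for the gene. IDR, the irreproducible discovery rate, scores the repeatability of peak ranks, here between random splits of 1 library. The fold is the authors' value for each peak, taken as enrichment over local background at the summit. It was not scaled between libraries, so the libraries are set side by side and no fold change is computed. A longer list per library, called pseudoreplicated, holds weaker peaks. The number of reads is unknown. With 1 group of 2 libraries there is no test between conditions, errors are the SD of 2 values, and they may be technical. A promoter outside a list is one that did not reach its threshold, and this does not show closed chromatin.

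The labelled cell type was checked against lists of marker genes. Promoters were accessible in both libraries for 8 of 10 erythroid markers (Slc4a1 and Alas2 were the exceptions), 4 of 10 megakaryocyte markers, 2 of 8 B cell, 1 of 8 T and NK cell and 0 of 10 granulocyte and macrophage markers. In the longer lists the counts were 8, 8, 3, 2 and 0.

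Of the 54 members, 39 (72.2%) had an accessible promoter in both libraries, against 45.7% of all protein-coding genes. Their promoters were also rich in CpG. Among genes whose promoter had an observed-to-expected CpG ratio of 0.6 or more, 36 of 47 members were accessible (76.6%), against 73.9% of all 9904 such genes, so within that class the members' share lay close to the background. By library, 40 members were in the list of replicate 1 (background 47.7%) and 42 in that of replicate 2 (background 47.9%). The conservative list, thresholded on both libraries together, held a promoter region of 49 members (90.7%, background 54.5%). In the longer lists 51 members had a promoter region in both libraries (94.4%, background 56.5%). That background was higher at high GC content at the most upstream TSS. It was 81.4% from 60 to 70% and 78.8% from 70% upward, classes with 19 members each. Pcgf2 and Smarcd3 had none in either longer list, a state shared by 39.6% of all genes. Ring1 had one in replicate 2 only.

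Every complex had members on both sides of the call. COMPASS had 7 of 9 accessible promoters (77.8%), SWI/SNF 11 of 15 (73.3%), NuRD 8 of 11 (72.7%) and Polycomb 13 of 19 (68.4%). Within Polycomb, PRC2 had 6 of 7 (85.7%) and PRC1 7 of 12 (58.3%). The share was 45.7% over all genes and 73.9% over those with a CpG ratio of 0.6 or more. The 11 members in neither IDR-thresholded list were Phf19, Ring1, Bmi1, Pcgf2, Cbx2, Cbx6, Smarcd3, Chd3, Mta1, Kmt2a and Setd1b. Smarce1 was called in replicate 1 only, and Arid2, Pbrm1 and Chd4 in replicate 2 only, while 4.21% of all genes were in exactly 1 list. Of these 15 members 12 had a promoter region in both longer lists, with mean folds of 3.03 to 5.47. The 39 accessible members had single-library folds of 4.27 to 12.0.

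**Figure D1:**
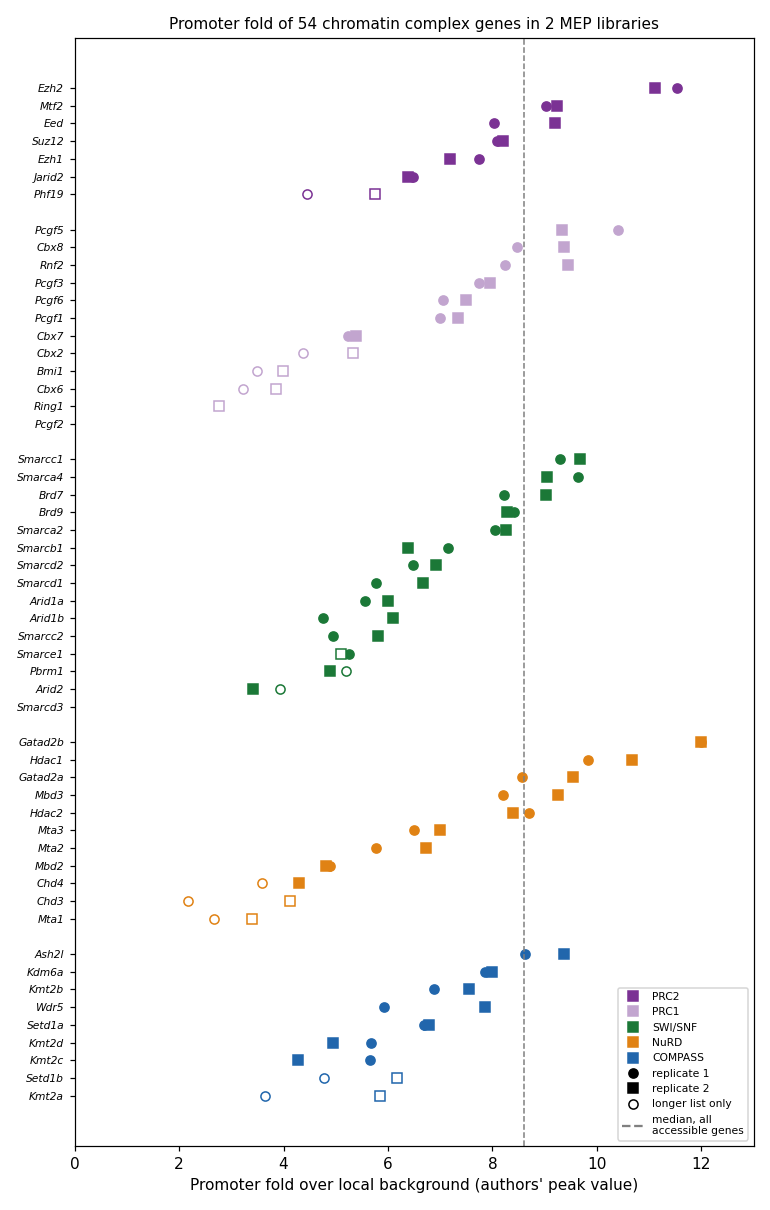
Promoter fold (the authors' value per peak, horizontal axis) of each of the 54 members, by complex, with a circle for replicate 1, a square for replicate 2 and a dashed line at the median of all accessible genes (8.61). Filled points are folds in the IDR-thresholded lists and open points folds found only in the longer list; Gatad2b, Ezh2 and Hdac1 sit highest, with mean folds of 12.0, 11.3 and 10.2, and Pcgf2 and Smarcd3 have no point.

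Accessible promoters of the complexes were of ordinary to low strength. The median fold of the 39 was 7.75 in replicate 1 and 7.96 in replicate 2, against 8.38 and 8.82 for all accessible promoters of the same lists. Averaged over the libraries, 14 of the 39 lay above the median of all 9988 accessible promoters and 0 in their upper 10%. The regions were narrower too, with median widths of 754 and 771 bp against 822 and 824 bp. The fold difference varied with GC content at the most upstream TSS. Median mean folds were 7.72 against 8.67 below 50% (2 members), 6.815 against 8.865 from 50 to 60%, and 8.23 against 8.72 from 60 to 70%. From 70% upward the members were higher, with 8.16 against 7.64. Median mean folds were 8.63 for NuRD, 8.15 for Polycomb, 6.89 for COMPASS and 6.77 for SWI/SNF. Folds were higher in replicate 2 for 27 of the 39 (69.2%), and for 66.5% of all accessible promoters.

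**Figure D2:**
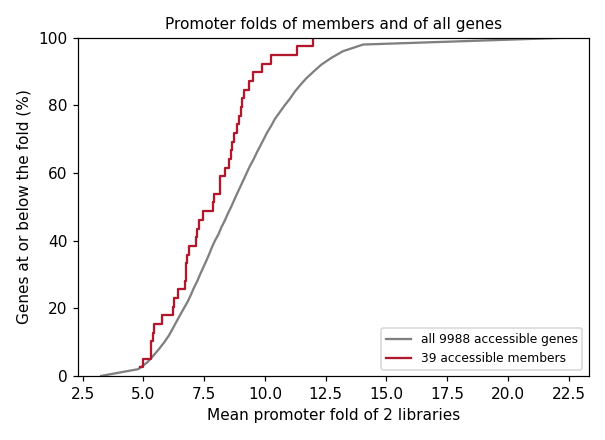
Cumulative share of genes (vertical axis, %) at or below a mean promoter fold of the 2 libraries (horizontal axis), for the 39 accessible members and all 9988 accessible genes. The members' curve runs to the left of the other over most of its length, with medians of 7.85 and 8.61, and ends at 12.0.

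In PRC2, the catalytic subunits Ezh1 and Ezh2 both had accessible promoters. Ezh2, the methyltransferase of dividing cells, had folds of 11.5 and 11.1 in replicates 1 and 2 (chr6:47594901-47595732, 11.3 ± 0.29, SD, n = 2). Ezh1, its paralogue with weaker activity, had 7.75 and 7.19 (chr11:101226046-101226608, 7.47 ± 0.397). Ezh2 was higher in each library, 1.52-fold by the means, and the values did not overlap. The core partners Eed, which binds methylated H3, and Suz12, the scaffold, had folds of 8.03 and 9.20 and of 8.09 and 8.20. Jarid2, which helps bring PRC2 to DNA, lay lower with 6.48 and 6.39, at a start site 1239 bp from its most upstream one.

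The Tudor-domain accessory subunits Mtf2 and Phf19 differed in call. Mtf2 had folds of 9.03 and 9.24, and Phf19 was in neither IDR-thresholded list, with 4.45 and 5.75 in the longer lists. Their promoter sequences are shown because the pair differed in call although both promoters are rich in CpG. Each is 150 bases around the ATAC-seq summit, upstream of the first exon of the gene's protein-coding transcripts (chr5:108065532-108065681, plus strand; chr2:34914220-34914369, minus strand), read from the GRCm38 reference. Capitals mark SP-type boxes (GGGCGG) and CCAAT boxes (bound by NFY) on either strand.

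Mtf2: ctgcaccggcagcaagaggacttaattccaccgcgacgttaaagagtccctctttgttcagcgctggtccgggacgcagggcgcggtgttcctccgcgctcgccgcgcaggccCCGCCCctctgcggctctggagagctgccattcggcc

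Phf19: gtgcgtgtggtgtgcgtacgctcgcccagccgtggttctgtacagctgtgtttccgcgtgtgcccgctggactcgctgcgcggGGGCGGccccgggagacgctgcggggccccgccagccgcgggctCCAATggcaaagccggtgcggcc

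The Mtf2 stretch holds 17 CpG and the Phf19 stretch 20, with GC contents of 67.3% and 74.0%. The Mtf2 stretch runs into the first exon of a transcript annotated as non-coding. Both hold an SP-type box, so this feature did not separate them.

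In PRC1, the E3 ligase Rnf2 (Ring1b) had folds of 8.23 and 9.45, whereas its paralogue Ring1 was in no list of replicate 1 and had 2.76 in the longer list of replicate 2. The Pcgf subunits, which define the variants of PRC1, split. Pcgf1 (7.0 and 7.35), Pcgf3 (7.75 and 7.96), Pcgf5 (10.4 and 9.33) and Pcgf6 (7.05 and 7.50, from a different region in each library) were accessible, and all 4 are known from non-canonical PRC1. Bmi1 (Pcgf4) and Pcgf2 (Mel18), the subunits of canonical PRC1, were not. Bmi1 had 3.50 and 3.99 in the longer lists, and Pcgf2 had no region in any library's list.

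The Cbx proteins read the methyl mark of PRC2 for canonical PRC1. Cbx8 had the strongest promoter of the 4 (8.47 and 9.38), above Cbx7 (5.23 and 5.38), and neither pair of values overlapped the other. Cbx2 and Cbx6 were in neither IDR-thresholded list, with 4.37 and 5.34 and with 3.22 and 3.86 in the longer lists. Cbx2 and Cbx8 are neighbours on chromosome 11. Cbx7 was accessible at a start site 38467 bp from its most upstream one. The stretches at the summits of Cbx8 (chr11:119041071-119041220, minus strand) and Cbx7 (chr15:79932697-79932846, minus strand) are shown as the strong and the weak accessible promoter of this family, with the same motifs in capitals.

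Cbx8: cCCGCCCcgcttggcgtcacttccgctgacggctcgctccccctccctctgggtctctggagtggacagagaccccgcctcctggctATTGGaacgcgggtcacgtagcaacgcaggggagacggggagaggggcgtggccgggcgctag

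Cbx7: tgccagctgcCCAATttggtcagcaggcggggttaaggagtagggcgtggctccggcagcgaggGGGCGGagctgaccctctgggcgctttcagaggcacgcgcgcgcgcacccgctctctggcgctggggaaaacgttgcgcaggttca

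Both have 15 CpG, a CCAAT box and an SP-type box, although the folds differed 1.68-fold by the means.

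In SWI/SNF, the ATPases Smarca4 (BRG1) and Smarca2 (BRM) were both accessible. Smarca4 had folds of 9.63 and 9.05 and Smarca2 8.06 and 8.26, so Smarca4 was higher in each library, 1.15-fold by the means. At a second, inner start Smarca2 had 8.13 and 9.73, which overlaps the values of Smarca4. The core scaffold Smarcc1 (BAF155) had 9.30 and 9.68 at an inner start (mean 8.38 at the most upstream), and its paralogue Smarcc2 (BAF170) had 4.95 and 5.82. That 1.76-fold gap was present in both libraries. Smarcb1, the core subunit lost in rhabdoid tumours, had 7.16 and 6.38. Of the Smarcd (BAF60) subunits, Smarcd2, needed for granulocyte development, had 6.48 and 6.93 and Smarcd1 5.77 and 6.67. Smarcd3, the form of heart and muscle, had no region in any library's list.

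The DNA-binding ARID subunits of SWI/SNF had low folds. Arid1a, of the BAF form, had 5.55 and 6.00 and Arid1b 4.76 and 6.09, and their order differed between the libraries. Arid2 and Pbrm1, which define the PBAF form, were each called in replicate 2 only. Arid2 had 3.41 there and 3.92 in the longer list of replicate 1. Pbrm1 had 4.89 in replicate 2, from a region with 5.18 in the longer list of replicate 1. In that longer list its most significant region was another, with 5.20. The Pbrm1 window also holds the start site of Gnl3, the nearest TSS to the summit of the region used in replicate 2. Brd7, the bromodomain subunit of PBAF, had 8.22 and 9.03, and Brd9, of the non-canonical form, had 8.42 and 8.28. The Brd9 summit lay nearest the TSS of Trip13. Smarce1 had 5.25 in replicate 1, and in replicate 2 that region reached only the longer list, with 3.86. A neighbouring region had 5.24 in replicate 1 and 5.10 in the longer list of replicate 2.

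NuRD held both the strongest promoter of all members and several weak ones. Gatad2b, a scaffold that links the remodeller to the deacetylase part, had folds of 12.0 and 12.0 (chr3:90292600-90293317, SD 0.00148, n = 2), above 89.9% of all accessible promoters. Its peak p-values were also the smallest among the members' promoters, with a −log10 p of 108.6 and 101.1. Gatad2a, its paralogue, had 8.56 and 9.54. The deacetylases Hdac1 and Hdac2 had 9.83 and 10.7 and 8.69 and 8.39, and Hdac1 was higher in each library. The stretch at the Gatad2b summit (chr3:90292987-90293136, plus strand) is shown as the top of the fold order, beside that of Kmt2d (chr15:98872211-98872360, minus strand), a COMPASS gene near the bottom. Capitals mark CCAAT and SP-type boxes and, in Kmt2d, the E-box CACGTG.

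Gatad2b: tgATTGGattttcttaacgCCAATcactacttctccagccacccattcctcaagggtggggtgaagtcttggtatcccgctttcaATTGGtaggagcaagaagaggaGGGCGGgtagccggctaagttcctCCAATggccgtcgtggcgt

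Kmt2d: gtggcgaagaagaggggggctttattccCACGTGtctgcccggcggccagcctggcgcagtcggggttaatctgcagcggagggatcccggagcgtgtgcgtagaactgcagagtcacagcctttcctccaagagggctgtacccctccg

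Of the 5 capital runs of Gatad2b, 4 are CCAAT boxes on either strand and the other is an SP-type box, with 7 CpG in all. The Kmt2d stretch, 1082 bp upstream of its start, has 11 CpG and neither box. An SP-type box is present close to the most upstream Kmt2d start. Kmt2c and Cbx7 had lower mean folds than Kmt2d (4.96 and 5.30 against 5.31). The summit stretch of Kmt2c holds an SP-type box and that of Cbx7 both boxes. Near the start of Ezh2 (mean fold 11.3) there is an SP-type box and no CCAAT box. Among these few genes, read partly at the summit and partly near the start, neither box was found only in strong or only in weak promoters. Whether the boxes bear on the fold was not tested.

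The remodellers of NuRD were not accessible in both libraries. Chd4, the main ATPase, was called in replicate 2 only with 4.30 and had 3.58 in the longer list of replicate 1. Chd3 was in neither IDR-thresholded list and had 2.16 and 4.12 in the longer lists. Among the Mta scaffolds, Mta3 (6.50 and 6.99) and Mta2 (5.77 and 6.73) were accessible, and Mta1 had 2.66 and 3.39 in the longer lists only. Mbd2, which binds methylated CpG, had 4.88 and 4.81, the lowest mean of the accessible members (4.84 ± 0.0536), while Mbd3, which binds it poorly, had 8.20 and 9.25. Mbd3 was 1.80-fold higher by the means, the widest gap of any paralogue pair with both promoters accessible.

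In COMPASS, the enhancer methyltransferases had the lowest mean folds of the accessible promoters within 1 kb, and the core subunit Ash2l the highest. Kmt2c and Kmt2d, which methylate H3 at enhancers, had 5.65 and 4.27 and 5.67 and 4.95, among the 5 lowest means of all accessible members. With a window of 2 kb the region of Kmt2c was another, with a mean fold of 8.62 in place of 4.96. Kmt2b (MLL2) had 6.89 and 7.54, while Kmt2a (MLL1) was in the longer lists only, with 3.63 and 5.86. Setd1a had 6.69 and 6.79, and Setd1b had 4.78 and 6.17 in the longer lists, at a start site 21188 bp from its most upstream one. The shared core subunit Ash2l had 8.63 and 9.38, and Wdr5 5.92 and 7.86, the widest spread of the accessible members (6.89 ± 1.37). Kdm6a (UTX), the demethylase of the Kmt2c and Kmt2d complexes, had 7.85 and 7.99 on the X chromosome.

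The 20 sets of paralogues formed 29 pairs, of which 14 had both promoters accessible. In 12 of these the same member was higher in each library, and in 8 the values did not overlap: Ezh2 over Ezh1, Pcgf5 over Pcgf3, Cbx8 over Cbx7, Smarca4 over Smarca2, Smarcc1 over Smarcc2, Hdac1 over Hdac2, Mbd3 over Mbd2 and Gatad2b over Gatad2a. Values overlapped for Pcgf6 and Pcgf1, Smarcd2 and Smarcd1, Mta3 and Mta2, and Kmt2d and Kmt2c. The order differed between libraries for Arid1a and Arid1b and for Brd7 and Brd9. The Pcgf6 order rested on a different region in each library: 1 had 7.05 and 7.07 and the other 6.425 and 7.50. Against Pcgf1 (7.0 and 7.35) either region alone gave opposite orders in the libraries. The non-overlap of Smarca4 and Smarca2 held for the more significant Smarca2 start and not for its inner one. The Pcgf5 order rested on its downstream start site: at the most upstream sites alone Pcgf3 was higher (log2 ratio 0.13). In 12 further pairs only 1 member was accessible in both libraries, and in 3 (Bmi1 and Pcgf2, Cbx2 and Cbx6, Chd3 and Chd4) neither was.

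**Figure D3:**
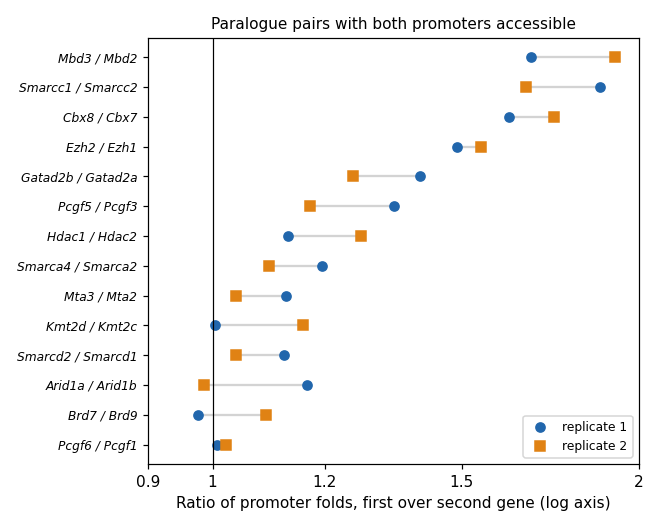
Ratio of promoter folds between paralogues (log axis) for the 14 pairs with both promoters accessible, with a circle for replicate 1, a square for replicate 2 and a line at equal fold. Points of 12 pairs lie on 1 side of the line, from 1.01-fold for Pcgf6 over Pcgf1 to 1.80-fold for Mbd3 over Mbd2 by the means, and those of Arid1a/Arid1b and Brd7/Brd9 lie on both sides. For Pcgf6 the points rest on a different region in each library.

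Several members were accessible at more than 1 promoter. Pcgf5 had folds of 6.87 and 7.53 at its most upstream start and 10.4 and 9.33 at a start 61439 bp further on. Smarca2 had 8.06 and 8.26 at the first, where the peaks were more significant, and the slightly higher 8.13 and 9.73 at a start 143139 bp into the gene. Ash2l was stronger at the inner start, 6907 bp downstream (8.63 and 9.38 against 6.62 and 8.13). Smarcc1 had 8.45 and 8.32 at its most upstream start, shared with Dhx30, and 9.30 and 9.68 at one 14272 bp downstream. Gatad2a had 8.56 and 9.54 and, 22113 bp downstream, 8.54 and 9.67, so its starts could not be ordered. In 5 accessible members (Jarid2, Pcgf5, Cbx7, Smarcc1 and Ash2l) the most significant region lay at a start over 1 kb from the most upstream one. Shared promoters were rare at the start used: 1 of 39 (2.56%), Brd9, had the TSS of another protein-coding gene within 1 kb, against 21.8% of all accessible genes.

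The summit lay away from the start in more members than in genes at large. It was over 500 bp from the nearest TSS of the gene in 7 of 39 (17.9%), against 8.51% of all accessible genes. These were Kmt2d (1082 bp), Arid1a (859), Kmt2c (823), Brd7 (821), Smarcc2 (776), Arid1b (606) and Pcgf6 (543). The group includes both ARID subunits of BAF and both enhancer methyltransferases, and in all 7 the summit was still nearest to the member's own start. The median distance was 90 bp for members and 67 bp for all. The Pcgf6 offset is that of the region used in replicate 1. Pcgf6 and Arid1a each had another region in both IDR-thresholded lists, with summits at -40 and -79 bp from the start.

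Base composition was high in members on both sides of the call. It was measured from 250 bases before to 50 after the most upstream TSS. Accessible members had a median GC content of 64.0% and CpG ratio of 0.824, against 60% and 0.766 for all accessible genes. The 15 members not accessible in both libraries had 68.7% and 0.875, whereas all genes without the call had 50.3% and 0.265. Of those 15, 11 had a GC content of 60% or more, among them Phf19, Ring1, Cbx2, Arid2, Mta1 and Kmt2a at 70% or more. From 70% of GC upward 13 of 19 members were accessible and 59.1% of all genes, from 60 to 70% 14 of 19 and 69.3%, and from 50 to 60% 10 of 14 and 49.9%.

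The same 300-base windows were searched on both strands for short motifs, and a match is a description, not a site. The SP-type box GGGCGG was present in 43 of 54 members (79.6%), against 63.1% of accessible genes and 43.8% of all. It was as frequent in accessible members (79.5%) as in the others (80.0%), and all 11 NuRD promoters held it. The CCAAT box was in 16 members (29.6%, against 41.8% of accessible genes), in 9 of 19 Polycomb promoters, 5 of 11 of NuRD and 1 each of 15 SWI/SNF and 9 COMPASS promoters. The ETS motif CCGGAAG was in 5 (9.26%, against 19.6%): Smarca2, Smarcc1, Brd9, Mta2 and Mbd2. The GATA motif (AGATAA or TGATAA) was in 4 (7.41%, against 10.4%): Cbx6, Arid1a, Chd4 and Gatad2a.

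Distal regions, those of the conservative list outside 1 kb of any protein-coding TSS, were assigned to a gene when the summit lay inside it or within 50 kb of either end. The members had 262 such regions, and 52 of 54 had at least 1 (background 77.2%). Pcgf2 and Smarcd2 had none. The median was 4 per member against 3 per gene. Members are long genes (median 32.6 kb against 17.4 kb), and per 100 kb of window the medians were 2.57 and 1.88. A region lay inside the gene in 31 members (background 34.6%). Per member the median was 5 in NuRD and COMPASS, 4 in Polycomb and 3 in SWI/SNF, and per 100 kb it was 3.60, 2.81, 2.56 and 1.64. Of the 262 regions, 126 (48.1%) had a member's start as their nearest TSS, so most lay nearer to another gene, and the window does not show on which gene a region acts.

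**Figure D4:**
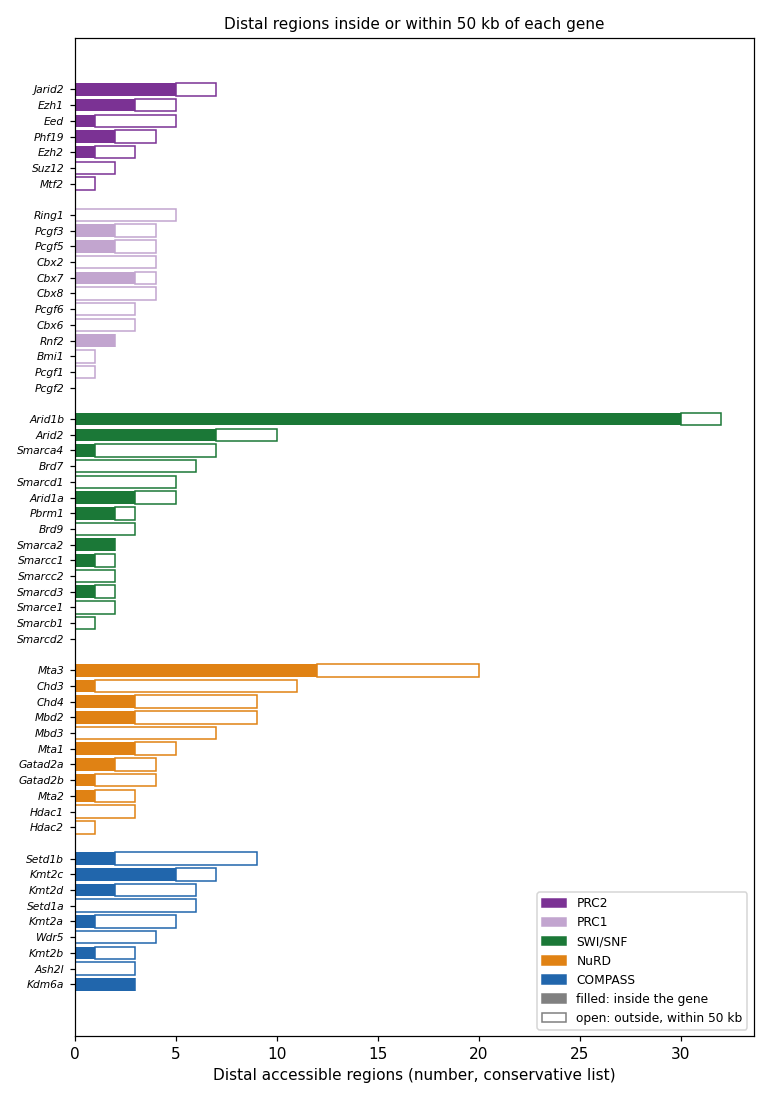
Number of distal regions (horizontal axis) inside each of the 54 genes (filled) and outside it within 50 kb (open), by complex. Arid1b (32) and Mta3 (20) have the longest bars, and Pcgf2 and Smarcd2 have none.

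Few members held many distal regions. Arid1b, Mta3, Chd3 and Arid2 had 10 or more (4 of 54, background 3.88%). In the lists of replicate 2 and replicate 1 alone Arid1b had 12 and 15, Mta3 11 and 12, Chd3 4 and 6, and Arid2 8 and 8, so Chd3 and Arid2 fell below 10 there. Arid1b had 32, of which 30 lay inside its 353 kb, or 7.06 per 100 kb of window, and 2 lay within 50 kb of its most upstream start. Mta3, a NuRD subunit of B cell and epithelial gene control, had 20, of which 12 were inside, and the higher density of 9.29 per 100 kb. Chd3 had 11 with 1 inside, and Arid2 had 10 with 7 inside. Chd4, Mbd2 and Setd1b had 9 each, and in the same single lists 2 and 3, 8 and 8, and 5 and 6. Of the 9 around Setd1b, 2 lay inside it. The promoters of Chd3, Arid2, Chd4 and Setd1b were not accessible in both libraries, although many distal regions lay in their windows. The gene's own start was the nearest TSS for 3 regions of Chd3 and 2 of Setd1b, and for 8 of Arid2 and 6 of Chd4.

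**Figure D5:**
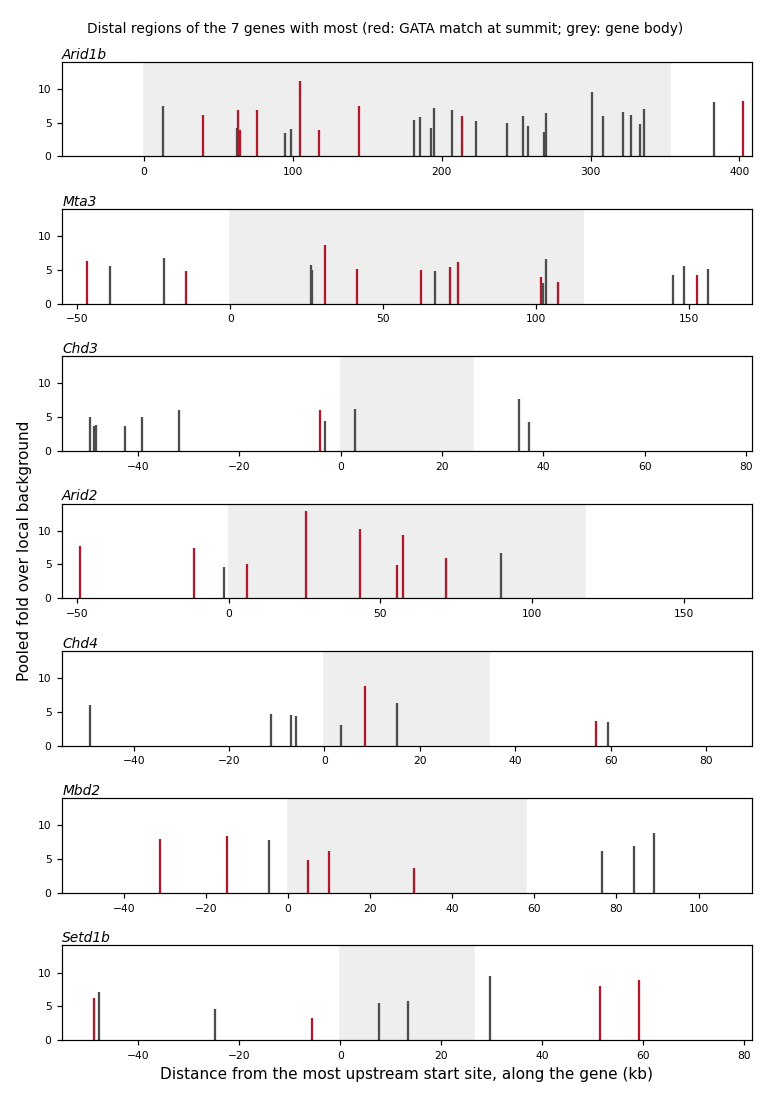
Distal regions of 7 members by distance of the summit from the most upstream start (horizontal axis, kb, along the gene's strand), with the gene body shaded, the pooled fold as the height of each line (vertical axis), and red lines for regions with a GATA match within 100 bp of the summit. The regions of Arid1b and Arid2 lie mostly inside the gene, and those of Chd3 mostly outside.

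The strongest distal region of the members was an intron of Smarcc1 (chr9:110139001-110139674), with folds of 15.03 and 15.04 in the libraries and 16.3 in the pooled data. The Smarcc1 promoters had 9.68 or less in either library. In PBAF, an Arid2 intron (chr15:96312549-96313305) had 11.7 and 12.2 (pooled 12.8) and a Pbrm1 intron (chr14:31045825-31046464) 8.57 and 12.3 (pooled 12.3), both far above the promoter of the same gene. An Eed intron (chr7:89962869-89963584) had 10.6 and 11.7 (pooled 11.9), the strongest of Polycomb. The Arid1b intron (chr17:5098902-5099831) had 10.9 and 10.1, and the strongest NuRD region, upstream of Hdac1 and nearest to Fam167b (chr4:129584765-129585646), had 8.82 and 8.84. In COMPASS the strongest, 20589 bp from the nearest start of Wdr5 (chr2:27540067-27540758), had 9.32 and 10.4. A Jarid2 intron (chr13:44869504-44869698) had 10.5 in replicate 1 and was in neither list of replicate 2, and its pooled fold was 9.72.

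The strongest distal region of each complex that holds a GATA motif and touches no exon is shown, with those of Arid1b and Mta3, the members richest in distal regions, since GATA factors are known regulators of this lineage. The bases were read from the GRCm38 reference. Each is 201 bases around the summit on the plus strand: chr7:89963209-89963409 (Eed), chr9:110139268-110139468 (Smarcc1), chr17:5099332-5099532 (Arid1b), chr6:125104321-125104521 (Chd4), chr17:83736822-83737022 (Mta3) and chr5:123201300-123201500 (in Psmd9, within the Setd1b window). Capitals mark AGATAA or TGATAA on either strand and, in Chd4, the composite of CTG, a spacer of 8 bases and GATAA, the form known for the joint binding of Tal1 and Gata1.

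Eed: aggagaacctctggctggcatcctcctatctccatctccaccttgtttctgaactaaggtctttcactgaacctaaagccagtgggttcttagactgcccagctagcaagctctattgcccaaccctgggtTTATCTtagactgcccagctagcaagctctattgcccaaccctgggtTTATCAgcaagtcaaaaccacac

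Smarcc1: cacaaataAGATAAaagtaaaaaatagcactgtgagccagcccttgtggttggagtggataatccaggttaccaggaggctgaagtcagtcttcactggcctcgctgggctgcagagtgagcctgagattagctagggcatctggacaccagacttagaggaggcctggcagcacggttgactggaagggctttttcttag

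Arid1b: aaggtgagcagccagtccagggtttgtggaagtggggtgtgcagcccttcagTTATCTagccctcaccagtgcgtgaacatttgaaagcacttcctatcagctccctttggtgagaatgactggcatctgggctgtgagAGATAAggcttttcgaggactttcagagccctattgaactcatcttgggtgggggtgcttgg

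Chd4: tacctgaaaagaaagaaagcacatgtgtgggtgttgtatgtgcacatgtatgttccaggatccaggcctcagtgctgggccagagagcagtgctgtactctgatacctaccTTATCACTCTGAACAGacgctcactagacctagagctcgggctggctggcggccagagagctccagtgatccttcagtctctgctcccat

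Mta3: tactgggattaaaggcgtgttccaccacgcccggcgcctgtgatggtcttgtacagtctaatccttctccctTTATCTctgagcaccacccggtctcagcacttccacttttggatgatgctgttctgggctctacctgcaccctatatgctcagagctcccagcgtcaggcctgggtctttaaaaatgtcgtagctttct

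Setd1b: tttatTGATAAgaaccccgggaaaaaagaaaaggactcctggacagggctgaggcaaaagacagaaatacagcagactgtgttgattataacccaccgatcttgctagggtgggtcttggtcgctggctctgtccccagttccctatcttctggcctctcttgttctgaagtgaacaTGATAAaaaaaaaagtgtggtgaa

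Eed, Arid1b and Setd1b show a pair of GATA matches each and the others 1. In Eed each match ends a copy of the same stretch, which is repeated side by side. The Chd4 region (chr6:125104063-125104806) had folds of 7.68 and 8.90, against 4.30 or less at the Chd4 promoter, and the Mta3 region had 7.73 and 8.57.

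Over all 262 regions GATA matches were not more frequent than elsewhere: 38.5% held one, against 42.4% of all 32778 distal regions. The shares were 45.1% for SWI/SNF, 43.5% for COMPASS, 36.2% for Polycomb and 30.3% for NuRD. Arid2 stood at 8 of 10 and Mta3 at 10 of 20, whereas Chd3 had 1 of 11 and Arid1b 9 of 32. Of member regions with a pooled fold of 8.04 or more 29 of 50 held a match (58.0%, against 47.0% of all such regions), and of those below 5.08 30 of 90 (33.3%, against 41.8%). In 23 of the 52 members the strongest region held one, a count for which the share over all genes was not computed. The composite was in 12 regions (4.58%, against 5.06%), including those of Pbrm1 and Chd4. ETS motifs (CCGGAAG or CAGGAAG) were in 15.6% (all 12.6%), with 3.45% in Polycomb and 21.1% in NuRD, and RUNX motifs (TGTGGT) in 16.4% (all 21.5%).

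The member regions recurred in both libraries at shares near those of distal regions in general. Both IDR-thresholded lists held 43.1% of them (all 38.9%) and both longer lists 93.5% (all 90.9%), and their median pooled fold was 5.90 (all 6.36). By position 150 (57.3%) lay in introns, 89 (34.0%) between genes and 23 (8.78%) in exons, and 108 (41.2%) lay inside a member. Of the 4 regions assigned to a pair of members, 3 were shared by Cbx2 and Cbx8 and 1 by Cbx6 and Cbx7.

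A list of 50 further subunits of these complexes gave a like picture. Their promoters were accessible in both libraries in 40 (80.0%, against 45.7% of all genes) and in 48 in the longer lists (96.0%, against 56.5%). Their median mean fold was 6.96, against 8.61 for all accessible genes. No comparison within promoters rich in CpG was made for this list. Scml2, a Polycomb protein of the X chromosome, was highest with 13.97 and 14.1, and Hcfc1, a COMPASS-associated cofactor, lowest with 3.79 and 3.75. No region in either IDR-thresholded list was found for 7: Scmh1, Bcor, Auts2, Phf10, Bicral, Chd5 and Ncoa6. Actl6b and Rybp were called in replicate 2 only and Cdk2ap1 in replicate 1 only. Chd5, the neuronal paralogue of Chd3 and Chd4, had no region in the longer lists either.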

How the data were processed

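The files hold peaks in narrowPeak layout, called on mm10 per the read-me texts and the labels. In them the authors deposited a fold (a ratio) and a −log10 p per peak, each the caller's own value. Not given in the sources used here are the aligner, the peak caller and their versions, and the depth is unknown. On the 21 main chromosomes, peaks that overlapped by 1 bp or touched were joined, and each region kept the fold and summit of its most significant peak (26353 and 28142 regions in the IDR-thresholded lists, 46200 in the conservative list). Genes and 54361 coding TSS came from GENCODE M21. Sequences came from the GRCm38 reference, and motifs were exact matches. Python 3.11.15 and numpy 2.4.6 were used, and the scripts were tested on simulated data. The members and lists were chosen with earlier results of these data known. By the naming rule, values are given for the 5 highest and 5 lowest promoters, every member not accessible in both libraries, the members richest in distal regions or with none, all paralogue sets and the strongest distal region of each complex. Other members and regions named as examples, and the printed choice among the sequences, were picked after their values were seen.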

Additional observations from a re-analysis of the deposited data

How the results depend on the processing

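Depth is unknown, and the fold and the calls depend on it. No paired analysis was possible because there is 1 group. The count of accessible members stayed between 38 and 42 with a window of 500 bp or 2 kb, the summit inside the window, the most upstream TSS only or either library alone, and was 51 in the longer lists. Only the upper 50% of regions by fold gave fewer, 20 members (37.0%, against 27.7% of all genes), with 8 in Polycomb, 5 in SWI/SNF, 5 in NuRD and 2 in COMPASS. The comparison within promoters of CpG ratio 0.6 or more was chosen after seeing the data. Kmt2d was lost at 500 bp and with the summit rule and Cbx7 with the most upstream TSS, and 2 kb added Arid2 and Kmt2a. The median mean fold of accessible members was 7.70 to 7.75 with 1 library left out and 6.77 in the longer lists, where 23 of 25 paralogue pairs kept 1 order. That order needs both libraries and has no value with 1 left out. The median number of distal regions per member (4, all genes 3) was 2 with either library left out (all 1), 8 in the replicated list (all 5), 20 in the archived one (all 14), 1 in the upper 50% by fold (all 1), 3 within 50 kb of the most upstream TSS (all 2), 2 within 20 kb of either end (all 1) and 1.5 by nearest TSS (all 1). Log2 ratios changed sign for Arid1a/Arid1b (-0.34 at 500 bp, -0.021 without replicate 1, 0.22 without replicate 2), Kmt2c/Kmt2d (0.70 at 2 kb), Pcgf3/Pcgf5 (0.13 at the most upstream TSS) and Brd7/Brd9 (-0.035 without replicate 2); the cause was not tested.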
